A study of Mus musculus with 6 samples.

Results

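The 7 mRNAs of respiratory complex I that are encoded by mitochondrial DNA were followed in mTAIL-seq libraries of mouse naive CD4 T cells. They are mt-Nd1 (ENSMUSG00000064341), mt-Nd2 (ENSMUSG00000064345), mt-Nd3 (ENSMUSG00000064360), mt-Nd4l (ENSMUSG00000065947), mt-Nd4 (ENSMUSG00000064363), mt-Nd5 (ENSMUSG00000064367) and mt-Nd6 (ENSMUSG00000064368). They were chosen by gene ID, with no measured value in the rule, though earlier results of these data were known. Of the 7, 6 had at least 1 tag, among 7282 gene IDs with a tag in all. They held 1467 of the 93621 gene-linked tags and 1418 of the 84157 tailed ones, or 1.68%, where tailed means 5 nt or more. The files hold IDs without names, so the names are those of the list that chose the mRNAs.

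mTAIL-seq tags RNA molecules at the 3′ end by ligation and sequences that end together with its poly(A) tail, and a tag is a group of reads from 1 such end. The cells were sorted as TCRb+CD4+CD25-CD62LhiCD44low. The 3 WT libraries came from littermate controls with the alleles Btg1f/f Btg2f/f, and the 3 DKO libraries came from Btg1f/f Btg2f/f-CD4-Cre mice. Both genotypes thus carried the floxed alleles, and the Cre transgene, which is active in T cells from the stage of CD4 expression, was the difference between them. The labels speak of 2 pairs of mice for 3 libraries per genotype and do not say which libraries share mice, so a p-value here refers to variation among libraries, some of it perhaps technical. The state of Btg1 and Btg2 and the marker genes of naive T cells were not analysed here, since their IDs are not paired with names.

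Complex I is the first and largest enzyme of the respiratory chain. It takes electrons from NADH, passes them to ubiquinone and pumps protons across the inner mitochondrial membrane. Its mitochondrially encoded subunits all lie in the membrane arm, and the other subunits are made from nuclear genes and imported. The mitochondrial genome is transcribed as long polycistronic RNAs that are cut at the tRNAs between the genes. The mRNAs are then tailed inside the organelle by the mitochondrial poly(A) polymerase MTPAP. BTG1 and BTG2 act outside the mitochondrion, in the cytosol and nucleus, where they bind the CCR4-NOT deadenylase, so these mRNAs serve as a set whose tails are made and kept in another compartment.

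On the mitochondrial chromosome (MT, GRCm38.p6, RefSeq), the 7 genes span much of the circle. ND1 lies at bases 2751 to 3707 and shares its last 2 bases with the tRNA gene TrnI. ND2 lies at 3914 to 4951 and shares 2 bases with TrnW. ND3 lies at 9459 to 9806, with 1 base between it and TrnR. ND4L, at 9877 to 10173, overlaps the start of ND4, at 10167 to 11544, by 7 bases, and both proteins are made from a common bicistronic mRNA that ends with ND4. The 1378 bases of ND4 leave 1 base after the last whole codon, a case in which the tail itself completes the stop codon. ND5, at 11742 to 13565, and ND6, at 13552 to 14070, overlap by 14 bases, and ND6 is the only one of the 7 read from the light strand.

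The tails themselves show what the tags held, and the examples below were picked as tails of median length and as exceptions. The first 3 are tails at the median length of their mRNA over all 6 libraries, read as A throughout in 20, 7 and 10 tags. The other 3 are all the tags with an added base whose called string was an unbroken run of A followed by that base. Capitals mark the added bases, and T stands for U in the RNA.
mt-Nd1, median tail: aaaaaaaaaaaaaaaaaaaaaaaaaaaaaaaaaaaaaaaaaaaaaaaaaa
mt-Nd2, median tail: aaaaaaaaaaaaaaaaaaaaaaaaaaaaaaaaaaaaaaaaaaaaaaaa
mt-Nd4, median tail: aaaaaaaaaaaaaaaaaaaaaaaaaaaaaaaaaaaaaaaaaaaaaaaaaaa
mt-Nd4, WT 1: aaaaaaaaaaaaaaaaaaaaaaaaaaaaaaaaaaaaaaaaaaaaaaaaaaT
mt-Nd3, DKO 1: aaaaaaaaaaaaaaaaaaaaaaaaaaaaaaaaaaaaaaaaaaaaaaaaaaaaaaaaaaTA
mt-Nd3, DKO 2: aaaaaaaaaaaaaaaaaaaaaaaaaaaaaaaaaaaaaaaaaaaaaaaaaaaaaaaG
The 3 median tails had 50, 48 and 51 nt.

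The libraries differed in depth and quality before any comparison of genotypes. They held 3943 to 24024 tailed, gene-linked tags, and the complex I mRNAs held 114 to 350 of these per library. The libraries numbered 3 stood apart in both genotypes: 28.0% of gene-linked tags in WT 3 and 24.2% in DKO 3 had no tail of 5 nt, against 5.99% to 8.04% in the other 4. Results are therefore also given for numbers 1 and 2 alone, an alternative chosen after seeing the data. Shares with no tail of 5 nt count tags at 0 nt and tags without a length, listed at -1 nt. The latter were 0.861% to 1.65% of gene-linked tags, depending on the library.

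The mRNAs differed in how often they were tagged. Over the 6 libraries, mt-Nd1 had 544 tags, mt-Nd2 414, mt-Nd4 280, mt-Nd5 114 and mt-Nd3 110. mt-Nd6 had 5, of which 1, in DKO 1, carried a tail (32 nt). In human cells the ND6 mRNA is known for having no stable poly(A) tail. mt-Nd4l had 0 tags, which allows a share of up to 0.0032% of the gene-linked tags, counting error only. This bounds the tags linked to its ID and not the amount of the bicistronic mRNA, whose 3′ end lies at ND4. mt-Nd1, mt-Nd2 and mt-Nd4 each reached 10 tailed tags or more in all 6 libraries and are the 3 that enter the tests of tail length.

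Tail lengths fell in a narrow band around 50 nt. Of the 1418 tailed tags, 1035 were 40 to 60 nt long and 11 reached 90 nt. The median over all member tags was 50, 49 and 47 nt in WT 1 to 3, and 52, 51 and 49 nt in DKO 1 to 3. The lowest 10% of tails ended at 33 to 38 nt and the highest 10% began at 56 to 65 nt, depending on the library. Among all other gene-linked tags the corresponding bounds were 9 to 33 nt and 85 to 139 nt. The plot of the distributions shows 1 peak for the complex I mRNAs in each library and a broad spread with a long right side for the rest.

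**Figure D1:**
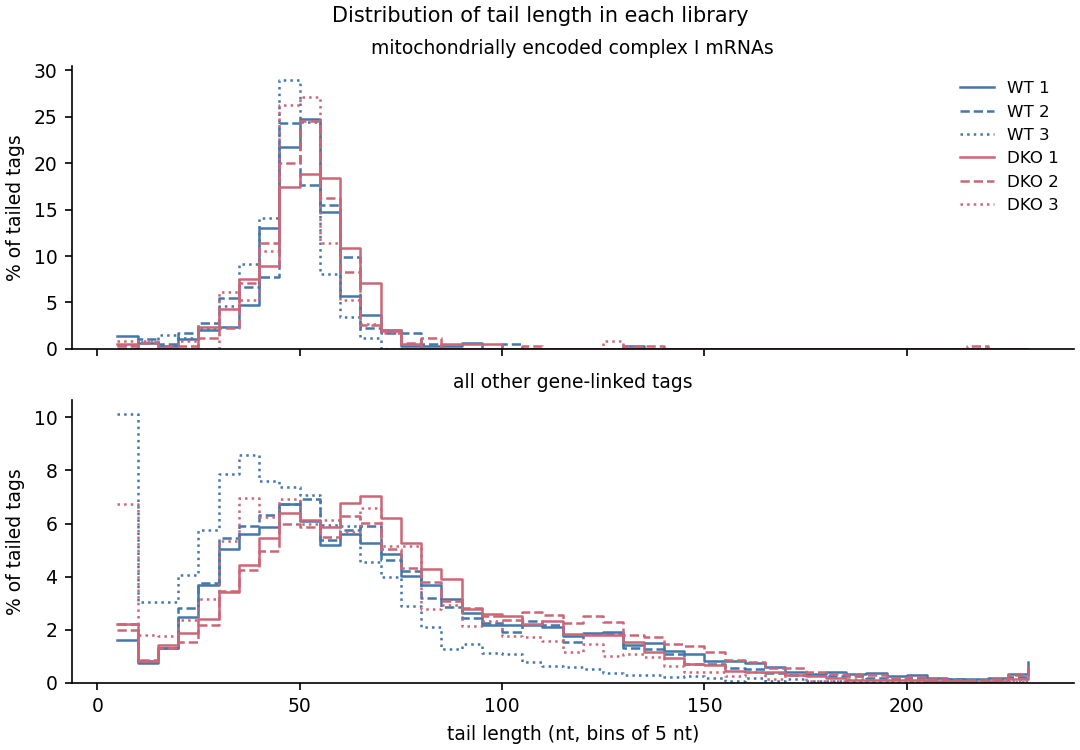
Percent of tailed tags (y axis) by tail length in bins of 5 nt (x axis), 1 line per library, for the complex I mRNAs (top) and all other gene-linked tags (bottom); the y scales differ. The complex I tails peak between 45 and 60 nt in all 6 libraries, while the other tags spread from 5 nt to well past 150 nt.

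Across libraries, the order of mean tail length was mt-Nd2, mt-Nd1, mt-Nd4, mt-Nd3 and mt-Nd5, but neighbours in it were hardly apart. The means over 6 libraries were 47.8 nt ± 2.24 (SD, n = 6) for mt-Nd2, 49.6 ± 1.91 for mt-Nd1 and 50.4 ± 2.95 for mt-Nd4. mt-Nd1 exceeded mt-Nd2 in 6 of 6 libraries, by 1.81 nt ± 1.66 (exact sign-flip test, two-sided, p = 0.03125, the smallest that 6 libraries can give, and 0.0938 after Benjamini-Hochberg adjustment over 3 pairs). mt-Nd2 was below mt-Nd4 in 5 of 6 libraries, by 2.55 nt ± 2.63 (exact sign-flip test, p = 0.0625, adjusted 0.0938). mt-Nd1 and mt-Nd4 differed by 0.74 nt ± 1.32, with mt-Nd4 longer in 4 of 6 (exact sign-flip test, p = 0.25, adjusted 0.25). None of the 3 pairs thus passed the adjusted threshold. mt-Nd3 at 51.0 nt ± 4.70 and mt-Nd5 at 52.8 nt ± 5.27 rest on as few as 3 and 6 tags in a library and were not tested.

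The study's main question was whether tails differ without BTG1 and BTG2. mt-Nd1, which encodes a membrane subunit near the ubiquinone site, had mean tails of 50.7, 49.2 and 46.3 nt in the WT and 51.4, 51.2 and 49.0 nt in the DKO libraries. The 2 groups overlapped. mt-Nd4, which encodes a proton-pumping subunit, had 52.7, 50.6 and 45.7 nt in the WT and 51.6, 53.4 and 48.2 nt in the DKO libraries, also with overlap.

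mt-Nd2, another subunit of the proton-pumping family, was the 1 of the 3 tested mRNAs whose groups did not overlap. Its means were 45.6, 47.9 and 44.7 nt in the WT and 50.4, 49.7 and 48.5 nt in the DKO libraries. The WT mean was 46.1 nt ± 1.65 (SD, n = 3) and the DKO mean 49.5 nt ± 0.944 (SD, n = 3), a difference of 3.45 nt (exact permutation test, two-sided, p = 0.1, the smallest that 3 against 3 can give, adjusted 0.3 over the 3 mRNAs). The differences for mt-Nd1 and mt-Nd4 were 1.75 nt (exact permutation test, p = 0.3, adjusted 0.45) and 1.44 nt (exact permutation test, p = 0.6, adjusted 0.6). The separation of mt-Nd2 depended on the tags and the average used: the groups overlapped with geometric means (46.5 nt in WT 2, 45.2 nt in DKO 3), with only tags linked to 1 gene ID (48.8 nt in WT 2, 46.2 nt in DKO 3) and with tags of 0 to 4 nt included. As background, 6.82% of the 44 gene IDs tested had all DKO libraries above all WT libraries and 0% had all below.

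With each of these 3 mRNAs weighted equally, mean tail length was 49.7, 49.2 and 45.6 nt in the WT and 51.1, 51.4 and 48.6 nt in the DKO libraries. The DKO mean of 50.4 nt ± 1.58 (SD, n = 3) was 2.21 nt above the WT mean of 48.2 nt ± 2.27 (SD, n = 3), a difference within the spread between libraries (exact permutation test, p = 0.3, adjusted 0.9 over 6 comparisons of the set). DKO was above WT within each number, by 1.41, 2.22 and 3.0 nt. Numbers 1 and 2 alone gave 1.82 nt. Without WT 3 the difference was 0.91 nt. It also depended on the members let in. At 5 or more tailed tags in every library, mt-Nd5 entered as well. The difference was then 3.98 nt (exact permutation test, p = 0.1, the smallest possible). All other tags had 75.2, 70.6 and 48.4 nt in the WT and 72.5, 79.3 and 61.3 nt in the DKO libraries, a difference of 6.29 nt (exact permutation test, p = 0.6).

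**Figure D2:**
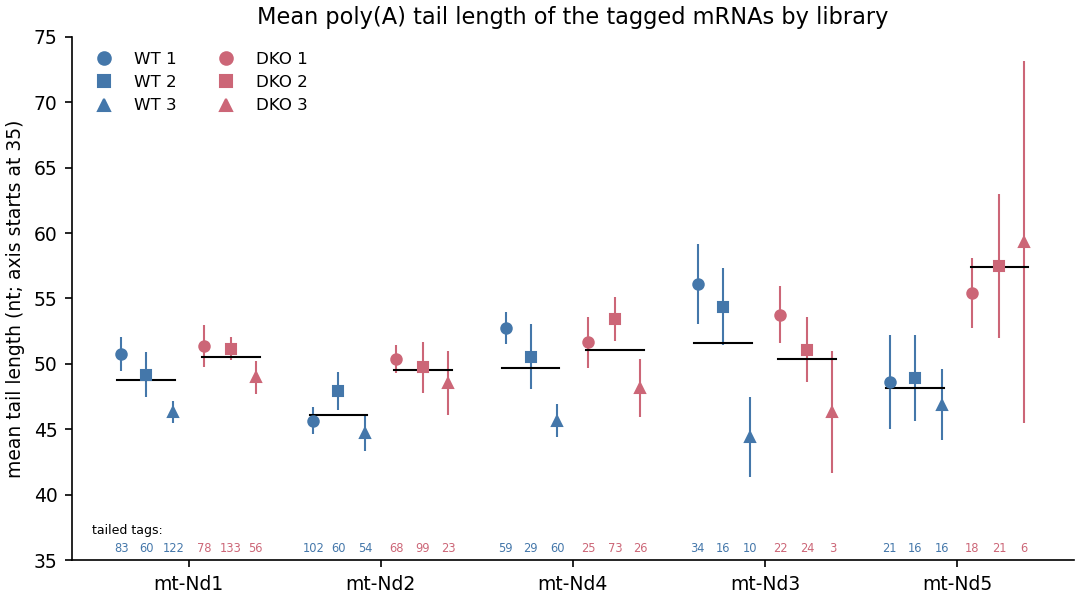
Mean tail length in nt (y axis, not starting at 0) of the 5 mRNAs with tailed tags in every library (x axis); points are libraries with the SE over tags, horizontal lines are genotype means, and the numbers of tailed tags stand at the bottom. By these arithmetic means the WT and DKO libraries of mt-Nd2 and mt-Nd5 do not overlap, while those of mt-Nd1, mt-Nd3 and mt-Nd4 do. The separation is lost for mt-Nd2 with geometric means, and for mt-Nd5 with medians but not with geometric means.

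mt-Nd5, the subunit at the far end of the membrane arm, and mt-Nd3, a small subunit at the joint of the 2 arms, had too few tags for the test. mt-Nd5 tails averaged 48.6, 48.9 and 46.9 nt in the WT and 55.4, 57.5 and 59.3 nt in the DKO libraries, without overlap. Such separation was not unique to mt-Nd5. When the minimum was lowered to 5, which let mt-Nd5 in, 76 IDs were tested by arithmetic mean. Of these, 7 had all DKO libraries above all WT libraries and 0 had all below. Few tags carried part of the mt-Nd5 separation: 3 DKO tags reached 90 nt and no WT tag did. DKO 3 had 6 tailed tags with an SE of 13.8 nt. By median over tags, mt-Nd5 had 52, 50.5 and 43.5 nt in the WT and 55, 51 and 50.5 nt in the DKO libraries, and these overlap. By geometric mean it had 42.5, 47.1 and 45.7 nt in the WT and 54.3, 52.6 and 53.5 nt in the DKO libraries, again without overlap. The difference was 9.27 nt by arithmetic mean, 8.33 nt by geometric mean, 3.5 nt by median and 2.34 nt with tags of 0 to 4 nt included. mt-Nd3 had mean tails of 56.1, 54.4 and 44.4 nt in the WT and 53.8, 51.1 and 46.3 nt in the DKO libraries, with overlap and 3 tags in DKO 3.

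Fitted over the 44 gene IDs for which no library had fewer than 10 tailed tags, limma called 0% of IDs at an adjusted p under 0.05, and 2 IDs had an unadjusted p under it. The log2 differences in mean tail length, DKO minus WT, were 0.05 (SE 0.12) for mt-Nd1, 0.10 (SE 0.11) for mt-Nd2 and 0.04 (SE 0.12) for mt-Nd4, each with a limma adjusted p of 0.86. Their median was 0.05, and the median of all 44 IDs was 0.10, with 41 of 44 higher in DKO. From the highest of the 44 differences, mt-Nd1 ranked 36, mt-Nd2 21 and mt-Nd4 38, so that mt-Nd2 lay near the median and the other two below it. Without WT 3 the median of all IDs tested was -0.03, with 18 of 46 higher, and limma again called 0.

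Compared with the rest of each library, the complex I tails were shorter on average. The difference from all other gene-linked tailed tags was -25.4, -21.4 and -2.86 nt in the WT and -21.3, -27.9 and -12.7 nt in the DKO libraries. Its mean was -18.6 nt ± 9.28 (SD, n = 6), negative in 6 of 6 libraries (exact sign-flip test, two-sided, p = 0.03125, the smallest possible, and 0.03125 after adjustment over 5 measures). The call depended on the average used and on the tags let in, and the reason was not tested. With a geometric mean it was -8.74 nt and with the median -9.94 nt, each negative in 5 of 6 libraries (exact sign-flip test, p = 0.0938 and 0.0625). With tags of 0 to 4 nt included it was -11.7 nt, negative in 4 of 6 (exact sign-flip test, p = 0.125). WT 3 was the exception by the geometric mean and the median, with complex I tails 6.15 and 3.67 nt longer than the rest. The rest includes the other mitochondrial transcripts, which were not separated, since their IDs are not paired with names. The difference from the rest did not itself differ between genotypes beyond the spread (WT -16.6 nt ± 12.0, DKO -20.7 nt ± 7.61, exact permutation test, p = 0.7, adjusted 0.96, n = 3 each). Without WT 3 that genotype difference of -4.08 nt turned to 2.78 nt.

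The complex I tails were also the more uniform ones. Over tags of a library, the SD of tail length was 12.3 nt ± 1.83 (SD, n = 6) for the complex I mRNAs and 38.8 nt ± 5.29 for all other tags, smaller in 6 of 6 libraries (exact sign-flip test, p = 0.03125, adjusted 0.03125). The rest mixes many genes, but set against the median SD of the other single gene IDs the difference was still -21.2 nt, with the interquartile range it was -35.4 nt, and over tags of 30 to 120 nt alone it was -13.3 nt, against -26.5 nt over all tailed tags (exact sign-flip test, p = 0.03125 each). Over single gene IDs, the SDs of mt-Nd4, mt-Nd1 and mt-Nd2 were 11.3, 11.4 and 11.9 nt, ranks 2 to 4 from the smallest among 44, where the other IDs had a median of 35.1 nt. The ID with the smaller SD, ENSMUSG00000064339.1, had 10.4 nt around a mean of 12.0 nt, and it is not named by the files. The next larger SDs were 18.3, 19.8 and 20.7 nt. They belonged to ENSMUSG00000024608.10, ENSMUSG00000064370.1 and ENSMUSG00000064337.1, so a low spread was not confined to the complex I mRNAs.

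Between libraries the 3 mRNAs were steady as well. The range of the library means was 5.04 nt for mt-Nd1, 5.68 nt for mt-Nd2 and 7.77 nt for mt-Nd4, ranks 1, 3 and 4 from the smallest of 44, against a median of 28.6 nt for the other IDs. In the libraries numbered 3, tails were shorter than in numbers 1 and 2 by 2.97 nt for mt-Nd1, 1.81 nt for mt-Nd2 and 5.17 nt for mt-Nd4. The median shift of the other IDs was -14.8 nt. These ranks are a description of 6 libraries, without a test.

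**Figure D3:**
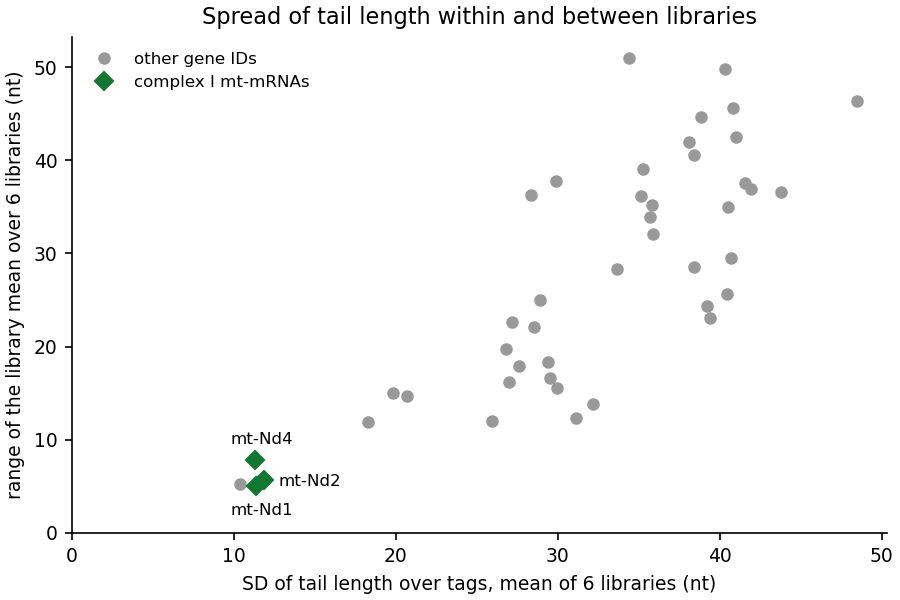
Range of the library mean tail length over 6 libraries (y axis, nt) against the SD of tail length over tags, averaged over libraries (x axis, nt), for the 44 gene IDs tested with limma. mt-Nd1, mt-Nd2 and mt-Nd4 lie in the lower left corner with 1 other ID, while the other IDs have a median range of 28.6 nt and a median SD of 35.1 nt.

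By root mean square difference over the 6 libraries, the gene ID whose mean tail length was most like that of the complex I mRNAs was ENSMUSG00000024608.10, at 3.23 nt. Its means were 46.4, 46.0 and 39.8 nt in the WT and 49.9, 51.7 and 45.9 nt in the DKO libraries, but its tags spread more widely, with an SD of 18.3 nt. The next, ENSMUSG00000016481.15, was 10.7 nt away, so that a single ID outside the set came close.

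The share of short tails lay lower in each DKO library than in each WT library, at the limit of what 3 against 3 can test. Tails under 30 nt made up 5.35%, 6.08% and 6.11% of tailed complex I tags in WT and 2.83%, 2.57% and 2.63% in DKO libraries. The groups did not overlap, with means of 5.85% ± 0.428 for WT and 2.68% ± 0.135 for DKO (SD, n = 3 each, exact permutation test, two-sided, p = 0.1, the smallest possible, adjusted 0.6 over 6 comparisons). The counts behind these shares were small. mt-Nd1 had 16 such tags in WT and 9 in DKO, mt-Nd2 16 and 4, mt-Nd4 7 and 4, mt-Nd5 3 and 1, and mt-Nd3 1 and 0. With a limit of 20 nt the difference was -1.10 percentage points instead of -3.17 (exact permutation test, p = 0.2). Numbers 1 and 2 alone gave -3.01 percentage points. Among all other tags the share was also lower in DKO within each number, at 15.6% ± 9.04 in WT and 10.8% ± 4.36 in DKO on average, but with overlap (exact permutation test, p = 0.5, n = 3 each).

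Against the rest of the library, short tails were less frequent among complex I tags, at 4.26% ± 1.76 (SD, n = 6) against 13.2% ± 6.87, lower in 6 of 6 libraries (exact sign-flip test, p = 0.03125, adjusted 0.03125). The gap was widest in the libraries numbered 3, at -19.9 and -13.2 percentage points, and lay between -5.94 and -4.50 in the other 4. The rest held some IDs with very short tails. ENSMUSG00000064339.1 and ENSMUSG00000064337.1 averaged 12.0 and 20.2 nt, beside a median of 73.9 nt over the other IDs tested with limma. The gap without those IDs was not computed.

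Tags without a tail, counted together with those without a length, were likewise rarer. Of complex I tags, 3.55%, 2.16% and 4.03% in WT and 3.64%, 1.96% and 6.56% in DKO libraries had no tail of 5 nt, with no separation of the genotypes (exact permutation test, p = 0.8, adjusted 0.96, n = 3 each). Their mean of 3.65% ± 1.65 (SD, n = 6) compared with 13.6% ± 10.2 for the rest, and was lower in 6 of 6 libraries (exact sign-flip test, p = 0.03125, adjusted 0.03125). In numbers 1 and 2 alone the gap was -4.32 rather than -9.99 percentage points. WT 3 and DKO 3, in which 28.7% and 24.6% of the other tags lacked a tail, thus had few such complex I tags. At 0 nt only, the complex I share was higher in DKO by 1.11 percentage points, instead of 0.80 (exact permutation test, p = 0.6).

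Among the mRNAs, mt-Nd6 had 4 of its 5 tags without a tail or without a length, and mt-Nd5 had 16 of 114 (14.0%), against 2.21% for mt-Nd1, 1.93% for mt-Nd2, 2.86% for mt-Nd4 and 0.909% for mt-Nd3. By library those of mt-Nd5 were 1 of 22, 0 of 16 and 6 of 22 in WT, and 5 of 23, 0 of 21 and 4 of 10 in DKO. The untailed mt-Nd5 tags came from 4 of the 6 libraries and from both genotypes, and the difference between members was not tested. They were all listed at 0 nt. Tags without a length were 1 of mt-Nd6 in WT 2, 1 in WT 3, and the only such tag of mt-Nd3, in WT 1. mt-Nd1, mt-Nd2 and mt-Nd4 had some as well, among them 2 of mt-Nd4 in WT 1.

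**Figure D4:**
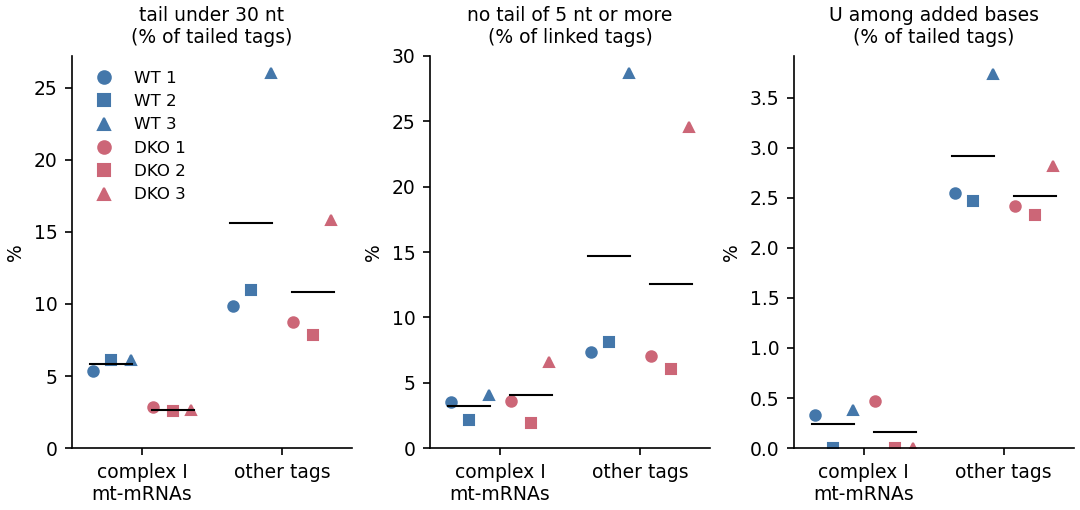
Percent of tags (y axes, from 0) with a tail under 30 nt, with no tail of at least 5 nt, and with a U among the added bases, for the complex I mRNAs and all other gene-linked tags; points are libraries and lines genotype means. Complex I tags lie below the other tags of their library in each panel, and their short-tail share is 5.35% to 6.11% in WT and 2.57% to 2.83% in DKO.

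Bases other than A at the 3′ end were rare. A U, the mark that in the cytosol labels short-tailed mRNAs for decay, was found in 3 of 1418 tailed complex I tags, a share of 0.212% (95% exact interval 0.0437 to 0.617, counting error only). Among all other tags it was found in 2113 of 82739, or 2.55%. The 3 tags came from WT 1, WT 3 and DKO 1, and the sequences above show those of mt-Nd4 in WT 1 and mt-Nd3 in DKO 1. Averaged over libraries the share was 0.198% ± 0.221 (SD, n = 6) against 2.72% ± 0.524, lower in 6 of 6 (exact sign-flip test, p = 0.03125, adjusted 0.03125). At matched lengths of 30 to 59 nt, an alternative chosen after seeing the data, it was 0.244% against 2.46%. The genotypes could not be told apart at this depth, with 2 tags in WT 1 and WT 3 and 1 tag in DKO (exact permutation test, p = 1, n = 3 each). Counting all bases, 15 complex I tags had an addition, with a C in 8 and a G in 4. Of the 82739 other tags, 2485 had an addition, with a C in 219 and a G in 306. By share, C was thus more frequent among complex I tags, unlike U and G, but neither C nor G was tested. Only the 3 such tags shown above had a called string of unbroken A before the addition. The U tag of mt-Nd2 in WT 3 did not.

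These 5 measures over 6 libraries, of tail length, spread, short tails, missing tails and U, share the smallest p the test allows. Taken as 3 pairs of equal number, each has a p of 0.25 by the exact sign-flip test, which is the smallest that 3 pairs can give.

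The amount of the mRNAs was compared by tag counts relative to the other tags of a library. Such values cannot tell less of these mRNAs from more of other transcripts, and they give no amount per cell. Together they made up 1.76%, 1.59% and 3.65% of tailed tags in WT and 1.03%, 1.46% and 2.89% in DKO libraries. The shares of 2.33% ± 1.14 and 1.79% ± 0.977 (SD, n = 3 each) overlapped (exact permutation test, p = 0.5, adjusted 0.96). DKO was below WT within each number, by 0.74, 0.13 and 0.76 percentage points. In both genotypes the library numbered 3 had the largest share. Without WT 3 the difference turned to 0.11 percentage points in favour of DKO.

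By tailed tags, mt-Nd3 was the one mRNA with all DKO libraries below all WT libraries. It held 0.201%, 0.141% and 0.139% of tailed tags in WT and 0.106%, 0.0999% and 0.0761% in DKO. As background, 6.47% of 170 gene IDs had all DKO libraries below and 11.8% had all above. That background was computed on shares of links to gene IDs, where a tag with a second ID counts for each. By the same measure over all linked tags, tailed or not, the groups of mt-Nd3 overlapped and those of mt-Nd2 did not. In that count, 9 of 184 gene IDs had all DKO libraries below and 16 had all above. Per tag, the lowest WT share of mt-Nd3 was 10 of 9968 in WT 3. The highest DKO share was 22 of 22233 in DKO 1, narrowly below it, so per tag the groups did not overlap. Of tailed tags, mt-Nd2 held 0.602%, 0.527% and 0.752% in WT and 0.329%, 0.412% and 0.583% in DKO, overlapping through DKO 3. mt-Nd1 held 0.490%, 0.527% and 1.70% in WT and 0.377%, 0.554% and 1.42% in DKO, so its spread within a genotype exceeded the difference.

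In edgeR's quasi-likelihood test over 170 gene IDs, 0% of IDs passed an adjusted p of 0.05, 13 had an unadjusted p under 0.05, and DESeq2 also called 0, with 8 under 0.05 unadjusted. The log2 changes in DKO were -0.80 (SE 0.46) for mt-Nd3, -0.73 (SE 0.51) for mt-Nd5, -0.58 (SE 0.43) for mt-Nd2, -0.54 (SE 0.61) for mt-Nd4 and -0.27 (SE 0.60) for mt-Nd1. Their edgeR adjusted p-values lay between 0.51 and 0.92. The median of the 5 was -0.58 beside -0.05 for all 170 IDs. Scaled by library totals in place of TMM, these medians were -0.32 and 0.24, and the 5 values remained below 0. These values rested in part on single libraries: mt-Nd1 was at 0.35 without WT 3 and 0.12 without DKO 1, and mt-Nd4 ranged from -1.30 without DKO 3 to -0.025 without DKO 1. With 1 library left out, mt-Nd2 ranged from -0.91 to -0.34, mt-Nd3 from -1.0 to -0.54 and mt-Nd5 from -1.01 to -0.49. With the number as a block, edgeR called 3 IDs, and without WT 3 it called 8 of 241, none of them a complex I mRNA. In numbers 1 and 2 alone it called 30 of 241 IDs, again none of the 5, with mt-Nd2 nearest at -0.78 (SE 0.29, edgeR adjusted p = 0.052).

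**Figure D5:**
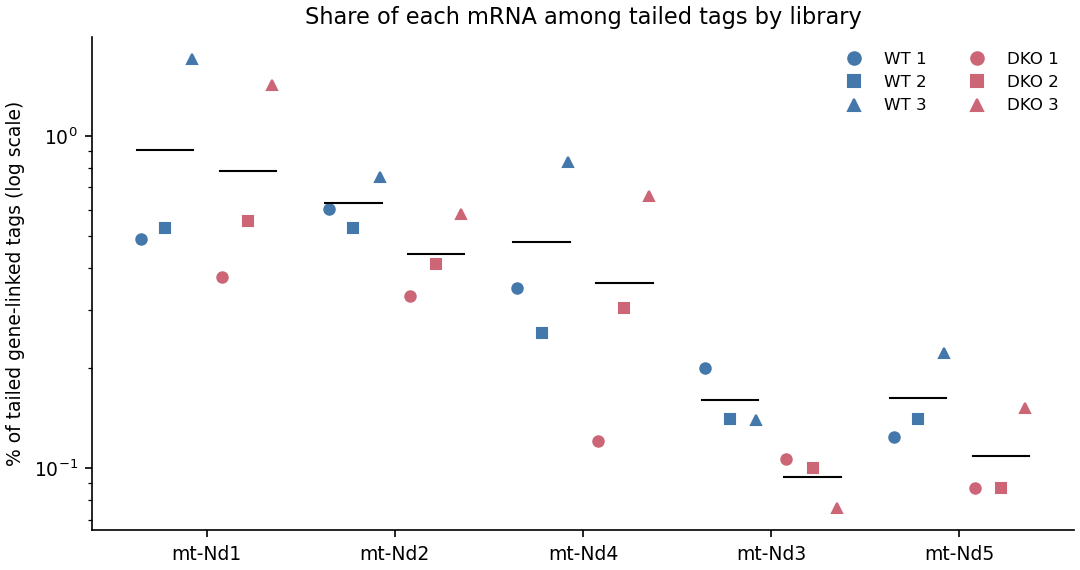
Percent of tailed, gene-linked tags (y axis, log scale) held by each of the 5 mRNAs (x axis); points are libraries and lines genotype means. For mt-Nd3 the 3 DKO libraries (0.0761% to 0.106%) lie below the 3 WT libraries (0.139% to 0.201%), while the groups of the other 4 overlap.

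Some tags were linked to a second gene ID, so their assignment is shared. This held for 190 of the 414 mt-Nd2 tags, which were also linked to ENSMUSG00000064346.1 and made up 97.4% of that ID's 195 tags. For mt-Nd1, 61 of 544 tags were also linked to ENSMUSG00000064342.1, and these were 100% of its tags. mt-Nd3 and mt-Nd4 had no such tags, and mt-Nd5 and mt-Nd6 had 1 each. The share of mt-Nd2 tags with a second ID was 54.7%, 61.7% and 25.9% in WT and 47.1%, 40.6% and 36.0% in DKO, which overlap (exact permutation test, p = 0.7, n = 3 each). Tails of mt-Nd2 tags with 2 IDs were 1.11 nt ± 3.50 (SD, n = 6) longer than those with 1 ID (exact sign-flip test, p = 0.4375).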

How the data were processed

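The authors deposited, per library, mapped tags with a count of reads and a tail length, their links to gene IDs, and tag counts and mean tails in nt for each ID. The submitters' processing notes name GSNAP, bedtools, mm10 and GRCm38. No tail caller is named in the labels. The deposited counts were recovered for 31 of 31 pairs of mRNA and library, and the deposited means, in nt, are geometric means over tags of 5 nt or more (within 1e-06 nt). No length from 1 to 4 nt is listed.

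Arithmetic means per library were compared with exact tests. limma 3.58.1 was fitted to log2 mean tail lengths, and edgeR 4.0.16 (TMM, filterByExpr) to tag counts, with DESeq2 1.42.0 as an alternative, each over the whole table (R 4.3.3, Python 3.11.15). All 7 mRNAs are named with their values, as are the gene IDs most like them. The mRNAs, lists and tests were chosen with earlier results of these data known.

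Same-numbered libraries had correlated deviations from their genotype means, 0.25, 0.40 and 0.52 for log2 tail length over 44 IDs and 0.13, 0.16 and 0.35 for log2 share of tags over 167 IDs, and every pair was above 0.1, so the numbers in the titles were treated as pairs in the block fits. Libraries 1 and 2 were not told apart by this: WT 1 correlated with DKO 2 at 0.33 (tails) and 0.26 (counts), and WT 2 with DKO 1 at 0.11 and 0.33, while number 3 correlated below 0 with both. The labels do not say what a number marks.

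Of 49997 rows of the RefSeq gene table, 0 carry an Ensembl ID, and the tags have no coordinates. Other mitochondrial mRNAs, nuclear complex I subunits, tailing and turnover factors and cell type markers are therefore not analysed here.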

Additional observations from a re-analysis of the deposited data

How the results depend on the processing

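Depth limits these results: 3 mRNAs had 10 tailed tags in every library, and 3 libraries per genotype cannot give an exact p below 0.1. The comparison with other mitochondrial mRNAs was not run, because their IDs are not paired with names. The cause of the changes below was not tested, except that fewer libraries raise the smallest possible p.

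Leaving out 1 library each, the 5 differences between complex I mRNAs and the rest kept their direction, with p = 0.0625, the smallest that 5 libraries allow in the exact sign-flip test. They ranged from -21.8 to -16.8 nt (tail length), -27.6 to -25.4 nt (SD), -2.64 to -2.36 percentage points (U), -11.3 to -7.06 (no tail) and -9.85 to -6.76 (under 30 nt). With the replicate block, as 3 pairs, they were -18.6 nt, -26.5 nt, -2.52, -9.99 and -8.96 percentage points with p = 0.25 (exact), and the block changed no other call except the 3 gene IDs called by edgeR and mt-Nd1 minus mt-Nd2 (1.81 nt, exact unadjusted p = 0.25). With numbers 1 and 2 only, they were -24.0 nt, -28.7 nt, -2.24, -4.32 and -5.16 percentage points, with an exact p of 0.125. The difference in tail length was -8.74 nt by geometric mean, -9.94 nt by median and -11.7 nt with tags of 0 to 4 nt included (exact sign-flip test, p = 0.0938, 0.0625 and 0.125).

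Of the genotype differences, DKO minus WT, these changed sign. The difference of complex I tails from the rest ranged from -8.51 to 2.78 nt with 1 library left out, the share of tags from -1.09 to 0.11 percentage points and the share without tail from -0.45 to 1.85. In numbers 1 and 2 only, the share without tail was -0.0567 and the share with U 0.0686 percentage points. mt-Nd3 tails ranged from -4.85 to 1.01 nt and were 2.67 nt by median. mt-Nd4 tails ranged from -0.56 to 2.98 nt (limma log2, -0.017 to 0.087) and were -0.67 nt (limma log2, -0.018) by median. The log2 change in mt-Nd1 counts ranged from -1.11 to 0.35. limma called 0 gene IDs under each alternative. edgeR called 0 to 8 with 1 library left out (8 without WT 3), 3 with the block and 30 in numbers 1 and 2 only. The complex I tail length (0.91 to 3.12 nt) and the share under 30 nt (-3.41 to -3.04 percentage points) kept their sign with each library left out. The tail length difference was 3.98 nt with members of at least 5 tailed tags in every library, mt-Nd5 included. With at least 30, mt-Nd1 alone, it was 1.75 nt.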
